A study of Caenorhabditis elegans with 6 samples.

Results

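Whole-animal transcript levels were compared between UM10, a Caenorhabditis elegans strain that carries human alpha-synuclein with the A53T change under the aex-3 promoter, and the wild-type strain N2, both fed Escherichia coli K12 BW25113. The samples were chosen by title, 2 libraries titled unkIs7_WT for UM10 and 2 titled N2_WT for N2, which makes 4 of the 6 libraries of the series. The genotype of UM10 is given as aex-3p::alphasynA53T, and the series title describes the expression as pan-neuronal. The genotype of N2 is given as wild type. Animals of both groups were raised on NGM plates until the L4 stage, the last larval stage, and poly-A RNA was sequenced. The remaining 2 libraries came from UM10 titled csgA, a food without csgA, the gene of the main subunit of curli fibres. They entered the statistical model but not the contrast, and their levels are given where named.

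For the 4 UM10 libraries, the deposited tables carry file names in which K12 and csgA are exchanged relative to the sample titles. The groups here follow the titles. With the food read from the file names, the 2 libraries compared with N2 would be the pair titled csgA. Some of the lists and named genes that moved under that reading are given below. The transgene, its insertion and the rest of the UM10 strain background cannot be told apart, since no other transgenic or non-transgenic line was analysed here, and whether UM10 was crossed back to N2 is not given in the sources used here. The human transgene is not among the worm genes counted, so its own expression could not be checked. The aex-3 gene counted in the tables is the worm gene whose promoter was borrowed.

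Alpha-synuclein is a presynaptic protein that aggregates in Parkinson's disease, and the A53T form is linked to inherited disease. Worms have no alpha-synuclein of their own, and human forms expressed in their neurons are used to follow aggregation and the loss of dopamine neurons. An L4 hermaphrodite is completing spermatogenesis and turning to oocyte production, while its epidermis and pharynx build the cuticle of the adult. Oocytes store RNAs for eggshell proteins and RNA-binding regulators of the embryo, and cuticle genes are transcribed in pulses tied to each moult. Whole-animal RNA sums over all these tissues, and fewer cells of a type cannot be told apart from less RNA per cell.

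Gene counts per library ranged from 22657727 to 23532382. Library composition differed most in N2 replicate 1. The share of gene counts held by the top 10 genes was 9.20% there and 5.82% to 7.64% elsewhere, and the TMM factor of that library (the trimmed mean of M values, which rescales a library for composition) was 0.610, against 1.02 to 1.2 elsewhere. Among the 203 genes with a mean level above 1000 CPM (TMM-scaled read counts at a common library total), the median log2 difference between N2 replicate 1 and N2 replicate 2 was 1.19. The markers of the labelled stage and tissues were detected. lin-29, bli-1, col-19 and mlt-10, markers of the L4 to adult moult, summed to 1417 and 1474 CPM in UM10 and 2056 and 1973 CPM in N2. Summed markers of neurons (10 genes) were at 769 and 1135 CPM in UM10 and 1298 and 782 CPM in N2, and overlapped. Summed oocyte markers (6 genes) did not overlap, at 1536 and 2767 CPM in UM10 and 239 and 592 CPM in N2. The sum of dopamine neuron markers (4 tested genes) did not overlap either, but was lower in UM10. It was at 23.6 and 23.1 CPM in UM10 and 56.999 and 38.7 CPM in N2. Most of this sum was bas-1, at 19.1 and 17.3 CPM in UM10 and 50.3 and 30.9 CPM in N2. dat-1 and dop-2 were lower in both UM10 libraries, cat-1 overlapped, and none of the 4 genes was called. Summed markers of body-wall muscle, intestine, sperm and adult yolk were also lower in both UM10 libraries than in both N2 libraries, and those of epidermis overlapped. All these sums are on the TMM scale, where the factor of 0.610 raises the CPM of N2 replicate 1. In raw counts unc-54 overlapped, with 40671 and 70192 in UM10 and 49753 and 111898 in N2. Raw counts of msp-19 and vit-2 overlapped too, while those of act-5, msp-3, vit-5 and vit-6 were lower in both UM10 libraries. The 3 markers of pharyngeal muscle, myo-1, myo-2 and tnt-4, summed to 6.64 and 101 CPM in UM10 and 50.7 and 301 CPM in N2, with UM10 replicate 1 lowest. Paired values here and below are replicate 1 and then replicate 2. Of these marker classes, oocytes were the class with genes that passed the test (4 of 6).

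Among 15331 genes tested, 338 were higher (2.2%) and 83 were lower (0.541%) in UM10 than in N2, together 2.75%, by edgeR's quasi-likelihood test at a Benjamini-Hochberg adjusted p under 0.05. Genes past this threshold are called. An unadjusted p under 0.05 by the same test was reached by 2934 genes (19.1%), the share against which the list counts below are to be read. The called genes that were higher had a median log2 fold change of 2.74, with a range of 1.67 to 9.21, and those that were lower had a median of -3.69, with a range of -8.82 to -1.59. The median over all tested genes was -0.09. None of the 421 called genes overlapped between the groups, and neither did 50.4% of all tested genes, of which 3964 (25.9%) had both UM10 libraries above both N2 libraries and 3762 (24.5%) below. Scaling by library totals, without TMM factors, moved the median of all tested genes to 0.45 and the calls to 548 higher and 50 lower, so that the share of calls that were higher was 91.6% in place of 80.3%.

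The number of calls depended on single libraries. It was 2 higher and 0 lower without N2 replicate 1, without N2 replicate 2 or without UM10 replicate 1, and 137 higher and 23 lower without UM10 replicate 2. In these fits the remaining library of the group was taken to vary like the other groups, and the genes called in each of the first 3 were T28D9.4 and W01A11.1. For other called genes, therefore, the call was lost without each of those 3 libraries, while the direction of all 421 was kept in each of the 4 fits. Ranges of log2 fold changes given below as with 1 library left out are over those 4 fits. With the food read from the file names, 336 of the 338 genes stayed higher and 82 of the 83 stayed lower, and 284 and 77 of them were called.

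**Figure D1:**
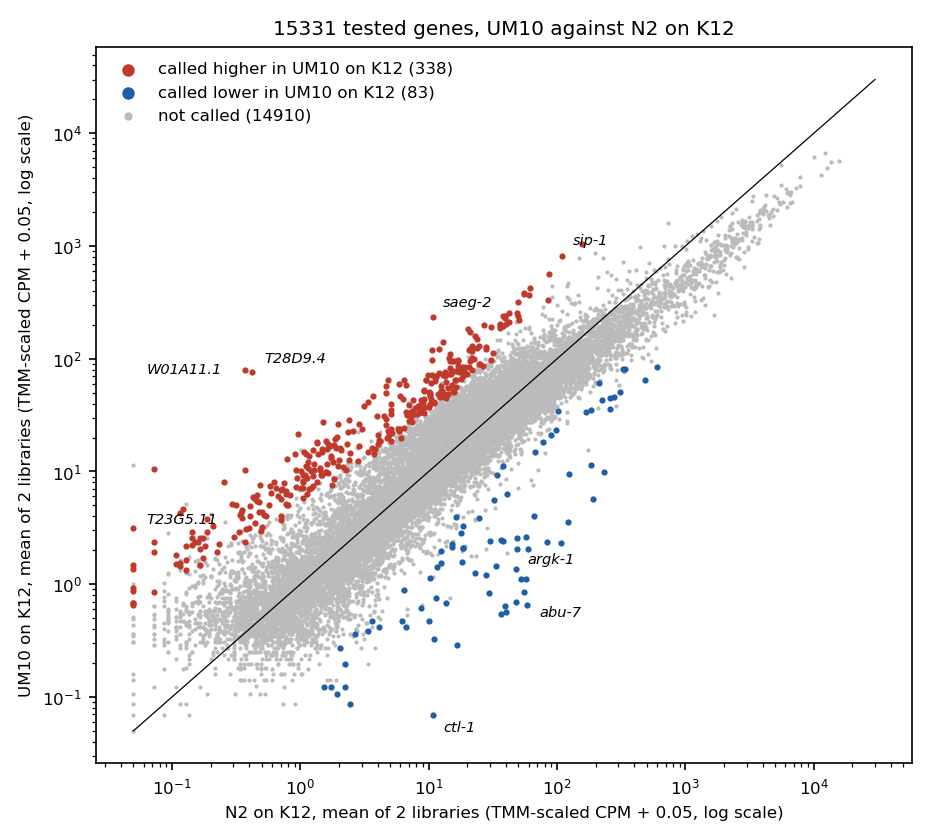
Mean TMM-scaled CPM of UM10 on K12 (vertical axis) against that of N2 on K12 (horizontal axis), each over 2 libraries with 0.05 added, both on log scales, for the 15331 tested genes. Red points are the 338 genes called higher and blue points the 83 called lower in UM10, the line marks equal levels, and the gray cloud drops below the line at high levels, where the median log2 fold change of the 203 genes above 1000 CPM was -1.06.

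The protein-coding genes W01A11.1 and T28D9.4 had the smallest adjusted p of all tested genes, 7.46e-05 for both by edgeR's Benjamini-Hochberg adjusted test. W01A11.1 (WBGene00020909, chromosome V 6499224 to 6502428) was at 86.4 and 71.8 CPM in UM10 and 0.290 and 0.346 CPM in N2. T28D9.4 (WBGene00020896, chromosome II 6476955 to 6478073) was at 73.9 and 79.6 CPM in UM10 and 0.435 and 0.303 CPM in N2. Both were low in each N2 library and at similar levels in each UM10 library, including the pair titled csgA (80.9 and 68.3 CPM for W01A11.1 and 84.3 and 69.8 CPM for T28D9.4). The log2 fold changes were 7.92 ± 0.53 and 7.72 ± 0.53 (SE, n = 2 per group), with 7.76 to 8.12 for W01A11.1 and 7.45 to 7.90 for T28D9.4 with 1 library left out. Exons of W01A11.1 overlap moc-2, and the counts ignore strand. With the sum of the 2 stranded columns in place of the unstranded count, the log2 fold change of W01A11.1 was 4.59.

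Several genes were counted in UM10 and were at 0 or nearly so in N2. F56A4.3 (WBGene00018911, chromosome V 2453414 to 2456147) was at 13.5 and 7.37 CPM in UM10 and 0 and 0.0432 CPM in N2, at least 48.1-fold higher, where the bound sets N2 at 3 counts per library. On the same rule F49H6.5 was at least 20.96-fold higher, epic-3 at least 19.4-fold, C45H4.14 at least 10.7-fold and F17A2.13 at least 8.62-fold. Such genes made up 32 of the 338 called higher. The bounds cover counting error and not the spread between libraries. On the lower side, 6 of 83 genes were at that floor in UM10, led by ctl-1, described below.

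On chromosome III a pair of neighbours were higher next to dat-1, the gene of the dopamine transporter, whose promoter is often used in worm transgenes. saeg-2 (WBGene00011964, chromosome III 9240363 to 9242514), first named as a suppressor of activated egl-4, was at 238 and 228 CPM in UM10 and 12.31 and 9.12 CPM in N2. The 2 compared libraries of each strain lay close together. The log2 fold change was 4.44 ± 0.50 (edgeR Benjamini-Hochberg adjusted p = 0.00730), with 4.24 to 4.62 with 1 library left out. In the UM10 pair titled csgA saeg-2 was at 99.97 and 170.7 CPM, above both N2 libraries and below the UM10 pair compared here. T23G5.11 (chromosome III 9242530 to 9242726) was at 3.78 and 2.47 CPM in UM10 and 0 in both N2 libraries, at least 14.4-fold higher. dat-1 itself, which starts at 9242975, was at 2.09 and 1.40 CPM in UM10 and 2.61 and 2.55 CPM in N2 and was not called. Exons of saeg-2 overlap T23G5.10 and T23G5.9.

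No gene of the neuronal lists passed the test with the groups read from the titles. Neurons are where the aex-3 promoter is described as active, and the level of the transgene itself was not measured. The promoter donor aex-3, a regulator of synaptic Rab proteins, was at 13.6 and 18.9 CPM in UM10 and 21.2 and 24.2 CPM in N2. Both UM10 libraries were lower, but the log2 fold change of -0.48 ± 0.50 was not called (edgeR Benjamini-Hochberg adjusted p = 0.630) and was 0.02 with library totals. Of 20 pan-neuronal genes, 0 were called by edgeR or DESeq2 and 0 had an unadjusted p under 0.05. Their log2 fold changes ran from -0.63 for unc-18 to 0.48 for unc-57, both needed for synaptic vesicle release or recycling, with a median of -0.18 against -0.09 for all tested genes. With library totals these medians were 0.41 and 0.45. The vesicle GTPase gene rab-3 was at 16.06 and 16.98 CPM in UM10 and 24.4 and 19.8 CPM in N2, and the synaptobrevin gene snb-1 at 242 and 295 CPM in UM10 and 424 and 262 CPM in N2. The strains overlapped for snb-1, and for rab-3 both UM10 libraries were below both N2 libraries.

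Among 11 tested genes of dopamine synthesis, transport, reception and cell fate, 0 were called by edgeR or DESeq2 and 1 had an unadjusted p under 0.05. The median log2 fold change was -0.29, and 0.19 with library totals. bas-1, the aromatic amino acid decarboxylase that makes dopamine and serotonin, had the lowest value (-1.16 ± 0.49, SE), at 19.1 and 17.3 CPM in UM10 and 50.3 and 30.9 CPM in N2. The receptor gene dop-4 had the highest (1.53 ± 0.85). With the food read from the file names the list median was -0.73, with 9 of 11 negative and 1 gene called lower. In that UM10 pair bas-1 was at 4.11 and 10.9 CPM. The gene cat-2, the tyrosine hydroxylase of dopamine synthesis, had 0 and 2 reads in UM10 and 4 and 11 reads in N2, below the filter. Whole animals hold few dopamine neurons, and a change confined to them could go undetected at this depth.

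Of 13 genes for other transmitters, 0 were called by edgeR, 2 had an unadjusted p under 0.05 and DESeq2 called 1. tbh-1, which makes octopamine, had the highest log2 fold change, 1.68 ± 0.46, with 70.4 and 42.04 CPM in UM10 and 18.1 and 16.9 CPM in N2 (edgeR Benjamini-Hochberg adjusted p = 0.0834). Among 111 neuropeptide genes, 13 had an unadjusted p under 0.05, against 19.1% of all tested genes. Of the 111, 0 were called by edgeR, and DESeq2 called 2 higher and 2 lower. Their median log2 fold change was 0.01, and 0.64 with library totals. Both UM10 libraries lay above both N2 libraries for 18 (16.22%) and below for 9 (8.11%), against 25.9% and 24.5% of all tested genes. With library totals, 59 (53.2%) lay above and 7 (6.31%) below, against 42.6% and 7.51% of all tested genes. Of 17 homologues of genes linked to Parkinson's disease, 0 were called by edgeR or DESeq2 and 1 had an unadjusted p under 0.05, with log2 fold changes between -1.06 for cts-1 (citrate synthase) and 0.70 for pink-1 (the PINK1 kinase of mitochondrial quality control).

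A group of oocyte transcripts rose in UM10. Of 28 genes of oocytes, eggshell and germ granules, 14 were called higher and 0 lower, where 2.2% of all tested genes were called higher. Both UM10 libraries lay above both N2 libraries for 24 of the 28, against 25.9% of all tested genes, and the median log2 fold change was 2.24, against -0.09 for all tested genes. The list was drawn up with earlier results on these samples known, and its count is no independent evidence of direction. The median was 1.73 to 3.03 with 1 library left out, lowest without N2 replicate 1, while the calls fell to 3 without UM10 replicate 2 and to 0 without each of the other 3 libraries. On the TMM scale, the summed markers of the L4 to adult moult were lower in both UM10 libraries than in both N2 libraries. In UM10 and in N2 replicate 1 most of that sum was col-19. That gene overlapped, at 1143 and 1097 CPM in UM10 and 1487 and 572 CPM in N2. The other members, lin-29, bli-1 and mlt-10, were lower in both UM10 libraries. The part of developmental stage in the oocyte result was not tested.

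The called genes included regulators of translation, eggshell components and surface receptors. nos-2, a Nanos family regulator of translation in the germ line, was at 107 and 88.6 CPM in UM10 and 10.1 and 10.9 CPM in N2. Its log2 fold change was 3.22 ± 0.42 (edgeR Benjamini-Hochberg adjusted p = 0.0108). Among maternal RNA-binding proteins, pos-1 was at 382 and 471 CPM in UM10 and 41.9 and 80.9 CPM in N2. oma-2, a zinc-finger protein of oocyte maturation, was at 269 and 364 CPM in UM10 and 31.9 and 66.5 CPM in N2. spn-4, mex-6 and the Pumilio genes puf-3, puf-5 and puf-11 were also called, with log2 fold changes of 2.69, 2.55, 2.13, 2.77 and 2.35. In each of these the lower UM10 library was above the higher N2 library, and N2 replicate 2 was above N2 replicate 1.

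cpg-2, a chondroitin proteoglycan of the eggshell, was at 832 and 1254 CPM in UM10 and 102 and 213 CPM in N2, and chs-1, the chitin synthase, at 108 and 151 CPM in UM10 and 10.6 and 32.9 CPM in N2. egg-1 and egg-2, receptor-like proteins of the oocyte surface needed for fertilisation, had log2 fold changes of 2.58 and 2.76, and egg-3, a pseudophosphatase of egg activation, of 2.54. egg-1 and egg-2 are close copies, and reads that fitted both were not counted. rme-2, the oocyte receptor for yolk, was at 128 and 262 CPM in UM10 and 22.5 and 53.0 CPM in N2 (edgeR Benjamini-Hochberg adjusted p = 0.0488). The vitellogenins, the yolk proteins that this receptor takes up, were not called. Their median log2 fold change was -1.33 over 6 genes, with 1 at an unadjusted p under 0.05 and 0 called by DESeq2.

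Genes of the list that were not called had the germ-granule components among their lowest values. glh-1, a Vasa helicase of P granules, had a log2 fold change of -0.12 ± 0.52, and its UM10 levels (134 and 203 CPM) lay between those of N2 (96.9 and 270.2 CPM). pgl-1 and pgl-3, RGG-domain proteins of P granules, had log2 fold changes of 0.75 and 0.98 and overlapped between the strains. cpg-1 (2.42), cbd-1 (2.13) and oma-1 (2.13) did not overlap but missed the threshold. In cbd-1, which joins the vitelline layer to the eggshell, UM10 replicate 1 (484 CPM) was well below UM10 replicate 2 (1239 CPM), both above N2 (106 and 289 CPM).

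**Figure D2:**
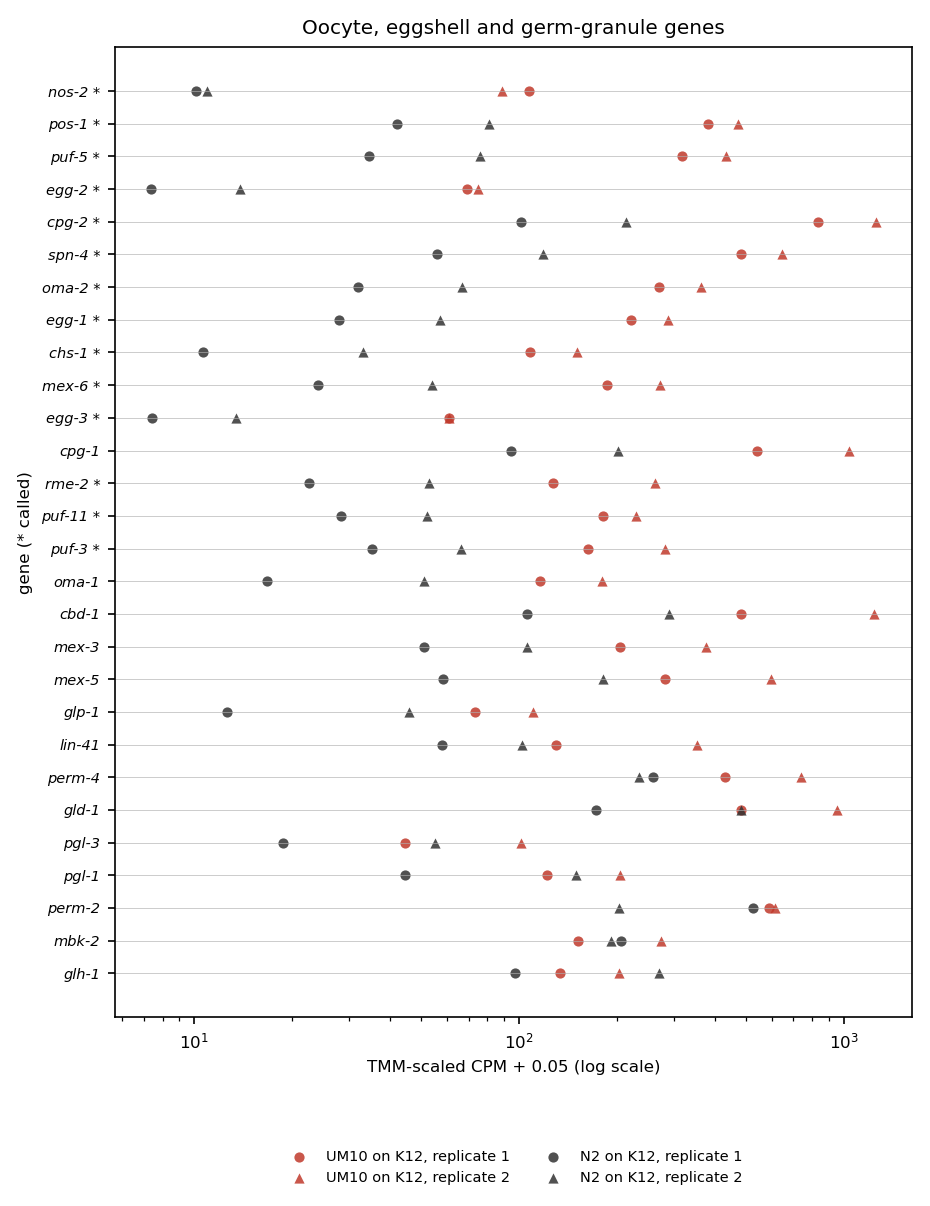
Levels of the 28 oocyte, eggshell and germ-granule genes (rows, ordered by log2 fold change, called genes starred) in TMM-scaled CPM with 0.05 added, on a log scale. Red symbols are the UM10 libraries and dark symbols the N2 libraries, circles replicate 1 and triangles replicate 2, and in the upper rows, from nos-2 to perm-4, the red symbols of a gene lie to the right of its dark ones.

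Symbol families that were on no list, or in part on one, and were picked out after their values were seen, held further maternal genes. All 4 meg genes, for P granule proteins that are maternally supplied, were called higher, meg-1 at 51.6 and 92.0 CPM in UM10 and 4.997 and 14.5 CPM in N2 and meg-4 at 14.01 and 19.8 CPM in UM10 and 0.942 and 2.38 CPM in N2. All 3 memi genes, named for the maternal control of the step from meiosis to mitosis, were called, with log2 fold changes of 2.23, 2.65 and 2.50. Of the 6 egg genes 5 were called, egg-4 and egg-5 among them. pie-1, a repressor of transcription in the embryonic germ line, was called with a log2 fold change of 2.09, and pal-1, the maternal Caudal homologue, with 2.16. Of 6 tbx genes (T-box factors), 3 were called, tbx-9, tbx-33 and tbx-36, with log2 fold changes of 3.04, 3.06 and 3.40. Memi and egg members are similar in sequence, and the split of reads between copies is uncertain.

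Genes of cell division and meiosis were nearly all above N2, with few calls. Of 26 genes of DNA replication and mitosis, 25 had both UM10 libraries above both N2 libraries, against 25.9% of all tested genes. Called were cyb-2.1 and cyb-2.2, mitotic B-type cyclins, and the median log2 fold change was 1.22. cyb-2.1 was at 112 and 80.2 CPM in UM10 and 12.8 and 17.6 CPM in N2, and cyb-2.2 at 162 and 135 CPM in UM10 and 17.9 and 29.4 CPM in N2. These are close copies. Of 24 meiosis genes 22 did not overlap and were higher, with a median of 1.21 and 1 call, lab-1, which protects cohesion between sister chromatids (log2 fold change 2.23 ± 0.52). The medians were 0.73 to 1.83 for cell division and 0.65 to 2.15 for meiosis with 1 library left out, lowest in both without N2 replicate 1. By edgeR, 2.2% of all tested genes were called higher. DESeq2 called 10 of the 26 and 8 of the 24 higher and none lower, against 783 higher and 384 lower of all 15331 tested genes.

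Of 46 histone genes 0 were called, with 1 higher and 1 lower by DESeq2, and their median log2 fold change was 0.73. Of the 46, 8 had an unadjusted p under 0.05, against 19.1% of all tested genes. Of 27 genes of small RNA pathways 0 were called, with 6 at an unadjusted p under 0.05 and 3 higher by DESeq2, and a median of 0.59 (0.22 to 1.27 with 1 library left out). Of 58 tested members of the major sperm protein and related families, 1 was called, ssp-37, at 6.09 and 4.20 CPM in UM10 and 0.652 and 0.778 CPM in N2. The median was -0.42, and 34 of 58 had both UM10 libraries below both N2 libraries, against 24.5% of all tested genes, but with library totals the median was 0.14.

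A group of pharyngeal cuticle genes fell in UM10. This cuticle is the lining of the feeding organ, and is shed and rebuilt at each moult. The abu and pqn genes encode proteins with stretches rich in glutamine and asparagine, the idpc and idpp genes encode intrinsically disordered proteins, and the nspb genes encode small nematode-specific peptides. Of 88 tested members of these families, 23 were called lower and 0 higher, where 0.541% of all tested genes were called lower. They made up 23 of the 83 called lower. The median log2 fold change of the 88 was -1.67, and 46 had both UM10 libraries below both N2 libraries, against 24.5% of all tested genes. The families did not move as a block, with 8 of 11 abu genes and 6 of 7 idpc genes called, but 3 of 10 nspb, 2 of 13 idpp and 4 of 47 pqn genes. Membership was by family, so a place of each member in this cuticle is not shown. The median was -0.38 for pqn, -2.12 for idpp, -3.45 for nspb, -4.45 for idpc and -5.22 for abu genes. This list too was chosen with earlier results on these samples known.

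abu-7 was at 0.220 and 0.995 CPM in UM10 and 45.4 and 71.5 CPM in N2, a log2 fold change of -6.58 ± 0.86 (edgeR Benjamini-Hochberg adjusted p = 0.0108). Its neighbour abu-6 was at 0.220 and 1.07 CPM in UM10 and 40.6 and 55.2 CPM in N2. abu-11, on another chromosome, was at 0.807 and 3.76 CPM in UM10 and 88.4 and 125 CPM in N2. In all 3 genes UM10 replicate 1 had the lowest level and N2 replicate 2 the highest, and the gap between the strains was wider than that within either.

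idpc-5 was at 0.697 and 1.44 CPM in UM10 and 43.6 and 61.0 CPM in N2, a log2 fold change of -5.61 ± 0.81. pqn-2 was at 0.0733 and 0.921 CPM in UM10 and 25.1 and 47.5 CPM in N2, and idpp-11 at 0.110 and 0.368 CPM in UM10 and 14.8 and 18.2 CPM in N2. The called members had log2 fold changes between -6.58 for abu-7 and -3.84 for nspb-8. With 1 library left out the median of all 88 was -2.47 to -0.80, weakest without N2 replicate 2, and the calls were 10 without UM10 replicate 2 and 0 without each of the other 3 libraries. Reads shared between similar members were not counted.

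Markers of pharyngeal muscle, the tissue beneath this cuticle, varied between the libraries of each strain. The summed level of myo-1, myo-2 and tnt-4 was 6.64 and 101 CPM in UM10 and 50.7 and 301 CPM in N2, none of the 3 was called, and UM10 replicate 2 was above N2 replicate 1. myo-2 alone, a pharyngeal myosin, was at 2.53 and 45.4 CPM in UM10 and 28.03 and 146 CPM in N2. The part of pharyngeal tissue content or of moulting phase in the pharyngeal cuticle result was not tested. In the pair of UM10 libraries titled csgA, abu-7 was at 0.247 and 1.34 CPM and idpc-5 at 0.411 and 2.88 CPM, both again below each N2 library.

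**Figure D3:**
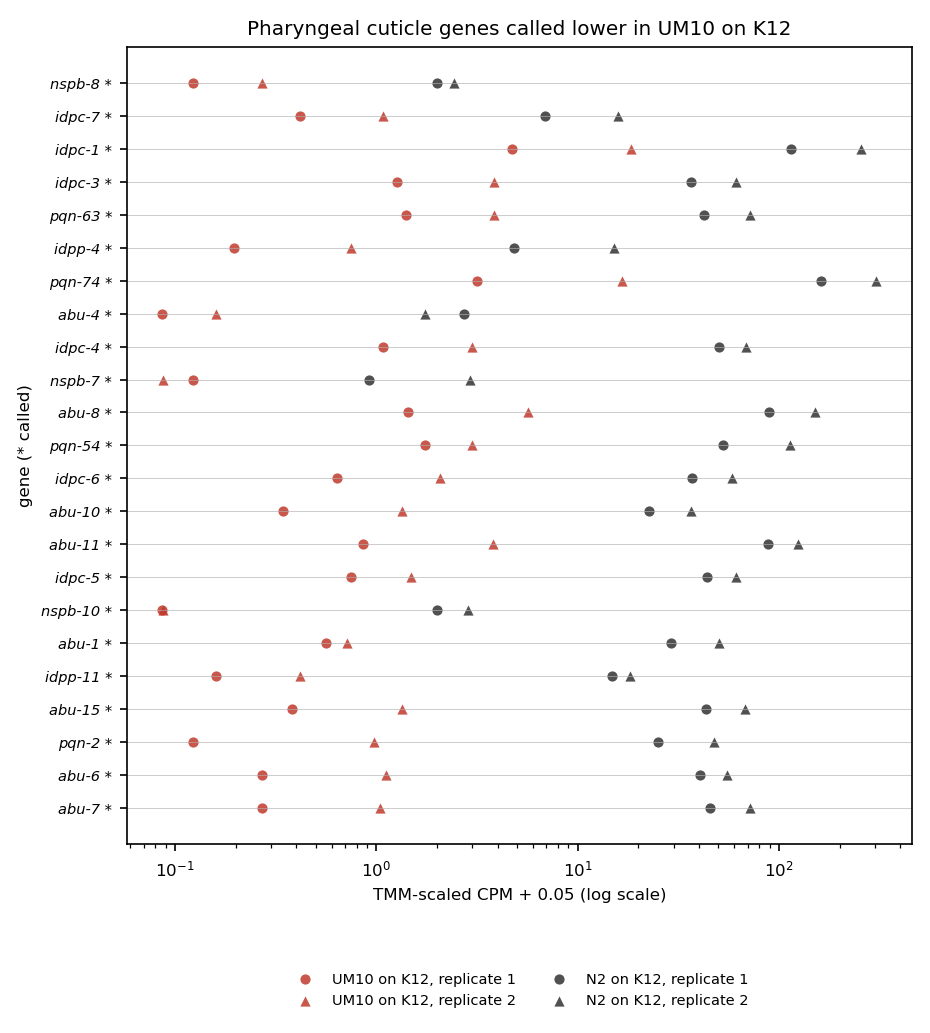
Levels of the 23 pharyngeal cuticle genes called lower in UM10 (rows, ordered by log2 fold change, with abu-7 at the bottom), in TMM-scaled CPM with 0.05 added, on a log scale. Red symbols are UM10 libraries and dark symbols N2 libraries, circles replicate 1 and triangles replicate 2, and for each gene both red symbols lie to the left of both dark ones.

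Collagens of the body cuticle were called on both sides. Of 151 tested collagen genes 6 (3.97%) were called lower (col-68, col-148, col-149, col-152, col-168 and col-170) and 2 (1.32%) higher (col-95 and col-135). Over all tested genes 0.541% were called lower and 2.2% higher. The collagen median log2 fold change was -1.25. For 90 of the 151 both UM10 libraries lay below both N2 libraries, against 24.5% of all tested genes. col-152 was at 2.60 and 0.442 CPM in UM10 and 21.9 and 14.1 CPM in N2, and col-170 at 40.9 and 26.5 CPM in UM10 and 217 and 119.2 CPM in N2. In the other direction, col-135 was at 55.6 and 43.7 CPM in UM10 and 3.77 and 5.36 CPM in N2, a log2 fold change of 3.44 ± 0.43 (edgeR Benjamini-Hochberg adjusted p = 0.0108). col-95 was at 82.1 and 36.3 CPM in UM10 and 9.27 and 2.38 CPM in N2. rol-6, a collagen gene often used as a transgene marker in a mutant form, was at 190.2 and 216 CPM in UM10 and 324 and 286 CPM in N2 and was not called. With the food read from the file names rol-6 was called lower, with a log2 fold change of -1.74. The balance of collagen calls depended on the setting. DESeq2 called 60 of the 151 lower and 4 higher, and the file-name reading 47 lower and 8 higher. Library totals gave 2 lower and 6 higher, with a median of -0.69. Over all 15331 tested genes these settings called 384, 783 and 50 lower and 783, 605 and 548 higher, in the same order. Without UM10 replicate 2 the calls were 0 lower and 2 higher, and without each of the other 3 libraries there were none.

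Genes on the moulting and developmental timing lists were not called by edgeR, though not all differences were small. Of 28 moulting and apical matrix genes 0 were called by edgeR and DESeq2 called 4 lower. Of the 28, 4 had an unadjusted p under 0.05, against 19.1% of all tested genes. Their lowest log2 fold change was -3.22 for cut-3 (edgeR Benjamini-Hochberg adjusted p = 0.0548), against a list median of -0.54. lin-42, the Period homologue that oscillates with the moults, had a log2 fold change of -1.46 ± 0.45, with 283 and 341 CPM in UM10 and 832 and 889 CPM in N2. For mlt-10 the N2 libraries themselves were far apart, at 112 and 419 CPM, and the UM10 libraries (67.8 and 95.5 CPM) were below both. col-19, an adult-stage collagen, overlapped, at 1143 and 1097 CPM in UM10 and 1487 and 572 CPM in N2. Of 13 developmental timing genes 0 were called by edgeR, 5 had an unadjusted p under 0.05, and DESeq2 called 1 higher and 1 lower.

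Of 70 hedgehog-related genes 1 was called, grl-27, a ground-like gene, at 0.660 and 0.368 CPM in UM10 and 51.7 and 27.7 CPM in N2. Its log2 fold change was -6.25 ± 0.83 (edgeR Benjamini-Hochberg adjusted p = 0.0108), with -6.75 to -5.78 with 1 library left out, against a median of -0.53 for the family. R03C1.1 is a protein-coding gene of chromosome II on none of the lists. It was at 0.917 and 1.22 CPM in UM10 and 55.6 and 58.6 CPM in N2. The compared libraries of each strain lay close together, with a log2 fold change of -5.74 ± 0.66. In the UM10 pair titled csgA it was at 0.657 and 2.69 CPM.

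**Figure D4:**
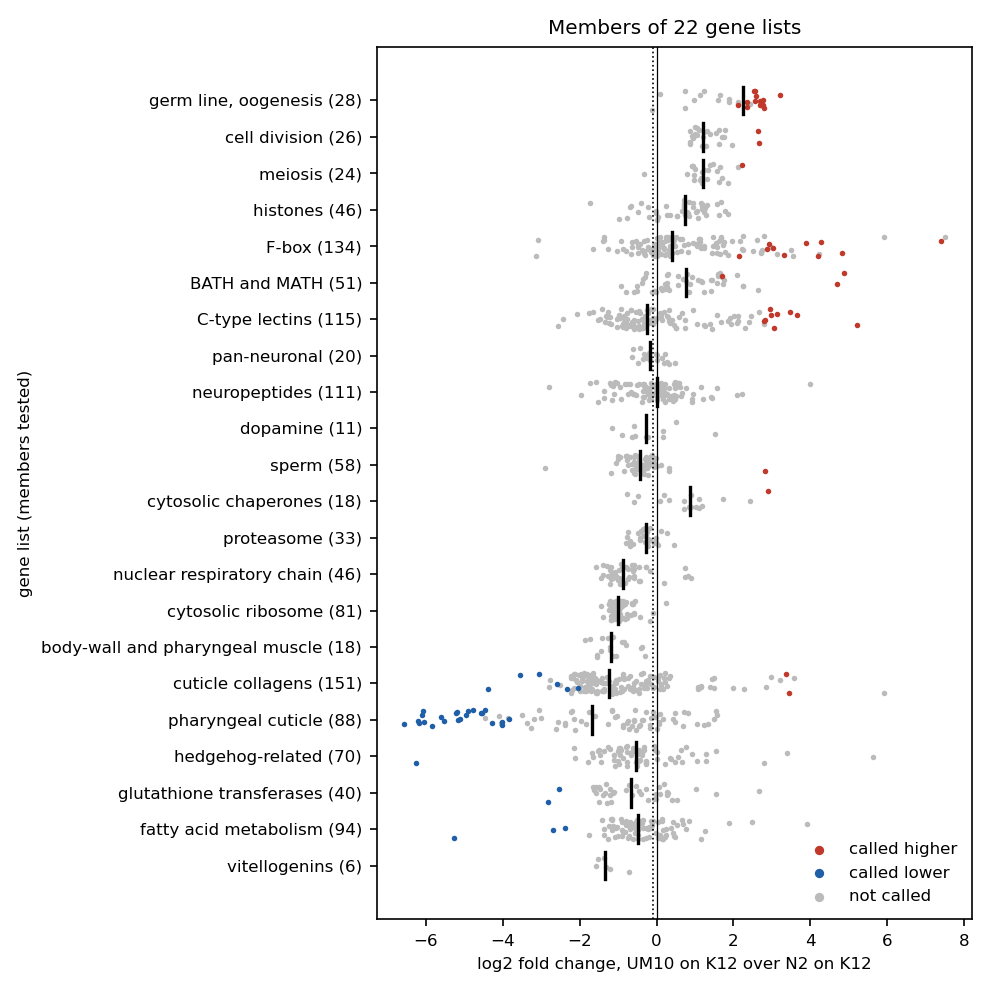
Log2 fold changes (horizontal axis, UM10 on K12 over N2 on K12) of the tested members of 22 gene lists (rows, with the number of members tested), each point a gene, colored by its call. Black bars are list medians, from 2.24 for oocyte, eggshell and germ-granule genes to -1.67 for the pharyngeal cuticle, the solid line is 0 and the dotted line the median of all tested genes, -0.09.

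A few metabolic genes fell by a large factor. ctl-1, the cytosolic catalase, had 0 and 0.0368 CPM in UM10 and 14.9 and 6.53 CPM in N2, at least 97.0-fold lower. The peroxisomal catalase ctl-2 was not called, at 84.8 and 105 CPM in UM10 and 219 and 105 CPM in N2, and neither was any other of the 27 antioxidant genes. argk-1, an arginine kinase, which stores phosphate for ATP, was at 1.39 and 2.58 CPM in UM10 and 67.4 and 29.6 CPM in N2, a log2 fold change of -4.60 ± 0.58 (edgeR Benjamini-Hochberg adjusted p = 0.0108). cth-1, a cystathionine gamma-lyase that lies beside it, was at 9.09 and 9.95 CPM in UM10 and 186 and 60.1 CPM in N2, with N2 replicate 1 well above N2 replicate 2.

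Of 94 genes of fatty acid metabolism 3 (3.19%) were called lower, all of breakdown, against 0.541% of all tested genes. None was called higher, against 2.2%. acdh-2, an acyl-CoA dehydrogenase, was at 0 and 0.553 CPM in UM10 and 14.2 and 7.70 CPM in N2, and its exons overlap ins-13. acox-1.2, a peroxisomal acyl-CoA oxidase, was at 46.7 and 38.7 CPM in UM10 and 199 and 246 CPM in N2. ech-1.1, an enoyl-CoA hydratase of the mitochondrial trifunctional enzyme, was at 4.69 and 2.91 CPM in UM10 and 32.2 and 17.2 CPM in N2. The groups did not overlap in any of the 3, and the median of the 94 was -0.48, or 0.10 with library totals.

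Few genes of the detoxification families were called. gst-4, a glutathione transferase widely used as a reporter of SKN-1 activity, was at 6.09 and 5.01 CPM in UM10 and 40.2 and 24.6 CPM in N2, and gst-10 at 46.9 and 25.1 CPM in UM10 and 350.4 and 163 CPM in N2. These were the 2 called of 40 glutathione transferases, where 0.541% of all tested genes were called lower and 2.2% higher. gst-4 overlaps dhs-12. Of 57 cytochrome P450 genes 5 were called higher and 1 lower. cyp-13A5 was at 12.7 and 9.54 CPM in UM10 and 0.797 and 1.297 CPM in N2, and its neighbour cyp-13A4 was at least 13.1-fold higher, though with the food read from the file names the log2 fold change of cyp-13A4 was -0.49. cyp-31A2 and cyp-31A3, which act in forming the eggshell, and cyp-31A5 had log2 fold changes of 2.02, 1.98 and 2.15. The lower gene was cyp-14A2, at 0.660 and 1.03 CPM in UM10 and 7.24 and 5.58 CPM in N2. Of 59 UDP-glucuronosyltransferases ugt-18 was called higher and ugt-46 and ugt-53 lower.

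Housekeeping transcripts had negative medians and no calls. Of 81 cytosolic ribosomal protein genes 0 were called by edgeR or DESeq2 and 5 had an unadjusted p under 0.05, and their median log2 fold change was -1.01. Of 46 nuclear genes of the respiratory chain 0 were called by edgeR and DESeq2 called 3 lower, with a median of -0.86. Of these 46, 12 had an unadjusted p under 0.05, against 19.1% of all tested genes. Of 9 ATP synthase genes 0 were called by edgeR, 5 had an unadjusted p under 0.05 and DESeq2 called 3 lower, with a median of -1.25. Of 32 genes of glycolysis and the citric acid cycle 0 were called by edgeR, 10 had an unadjusted p under 0.05, and DESeq2 called 2 higher and 1 lower, with a median of -0.87. These 4 medians were -0.35, -0.38, -0.59 and -0.39 without N2 replicate 1, and -0.32, -0.21, -0.56 and -0.25 with library totals, in the order given. Of 21 genes of propionate breakdown and the methionine cycle, which respond to vitamin B12 from the bacteria, 0 were called by edgeR, 4 had an unadjusted p under 0.05 and DESeq2 called 2 lower. The 18 contractile protein genes of muscle had a median of -1.18 (-0.71 without N2 replicate 1 and -0.50 with library totals), with 0 called by edgeR or DESeq2 and 1 at an unadjusted p under 0.05. unc-54, the main body-wall myosin, was at 1491 and 2586 CPM in UM10 and 3603 and 4838 CPM in N2. With the food read from the file names its log2 fold change was 0.17.

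The mitochondrial genome held 14 tested genes, of which both ribosomal RNA genes were called higher. WBGene00014472 (MtDNA 10403 to 11354) was at 87.0 and 47.3 CPM in UM10 and 12.2 and 9.86 CPM in N2, and WBGene00014454 at 77.8 and 52.8 CPM in UM10 and 17.2 and 14.7 CPM in N2. The other 12 were not called, and the median log2 fold change of the 14 was -0.22, or 0.37 with library totals. Poly-A RNA was selected before sequencing.

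Stress pathways gave few calls. Of 18 cytosolic chaperones 1 was called, sip-1, a small heat shock protein of oocytes and embryos, at 924 and 718 CPM in UM10 and 99.0 and 120.3 CPM in N2 (log2 fold change 2.90 ± 0.51, edgeR Benjamini-Hochberg adjusted p = 0.0193). The inducible hsp-16.2 overlapped, at 0.990 and 27.6 CPM in UM10 and 12.1 and 1.297 CPM in N2, as did hsp-70, at 2.24 and 66.6 CPM in UM10 and 40.99 and 1.34 CPM in N2. In both genes UM10 replicate 2 and N2 replicate 1 were the high libraries, and the median of the chaperone list was -0.67 without UM10 replicate 2 and 2.2 without N2 replicate 1, against 0.87 with all libraries. By edgeR 0 of 19 genes of endoplasmic reticulum stress, 0 of 13 of mitochondrial stress and 0 of 33 proteasome genes were called. In the same order 2, 2 and 0 had an unadjusted p under 0.05, and DESeq2 called 2 lower, 0 and 0. Of 53 autophagy and lysosome genes 1 was called, vha-18, a subunit gene of the lysosomal proton pump, at 38.6 and 25.5 CPM in UM10 and 6.08 and 10.03 CPM in N2.

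Of 17 genes of metal handling 1 was called, mtl-1, a metallothionein. It was at 13.2 and 1.55 CPM in UM10 and 0.797 and 0.259 CPM in N2, and rested on UM10 replicate 1, without which its log2 fold change was 1.62 in place of 3.88.

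Calls in families of host defence and protein turnover lay mostly on the higher side, as did 80.3% of the calls over all tested genes. Of 115 C-type lectins 9 were called higher and 0 lower, where 2.2% of all tested genes were called higher. The family median was -0.26, or 0.28 with library totals. With the food read from the file names 11 lectins were called higher and 12 lower. clec-88 was at 202 and 143 CPM in UM10 and 15.9 and 25.6 CPM in N2, and clec-91 at 125 and 77.0 CPM in UM10 and 15.6 and 12.9 CPM in N2. Of 134 F-box genes, whose products choose targets for ubiquitin ligases, 10 were called higher and 0 lower. Both UM10 libraries lay above both N2 libraries for 60 of them (44.8%), against 25.9% of all tested genes, and the median was 0.40. With 1 library left out this median was 0.15 to 0.76, and 5 F-box genes were called without UM10 replicate 2 and 0 without each of the other 3 libraries. fbxa-215 was at 139.9 and 79.7 CPM in UM10 and 11.8 and 17.3 CPM in N2, and fbxa-24 at 18.6 and 12.97 CPM in UM10 and 1.16 and 1.99 CPM in N2. Of 51 BATH and MATH genes, also linked to ubiquitin ligases, 3 were called higher, bath-9, bath-41 and math-34, with a median of 0.78. With 1 library left out this median was 0.35 (without N2 replicate 1) to 1.52 (without N2 replicate 2), and no member was called in any of the 4 fits.

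Of 83 antimicrobial genes 2 were called higher and 1 lower, and 7 and 9 with the food read from the file names. ilys-3, an invertebrate-type lysozyme, was at 7.003 and 8.69 CPM in UM10 and 0.797 and 0.605 CPM in N2. dod-22, a CUB-like gene, was at 43.3 and 8.88 CPM in UM10 and 2.17 and 1.69 CPM in N2, with UM10 replicate 1 far above UM10 replicate 2. spp-17, a saposin-like gene, was lower, at 51.7 and 38.4 CPM in UM10 and 314 and 208 CPM in N2. pals-14, the 1 gene called of 23 of the intracellular pathogen response family, was at 6.67 and 0.774 CPM in UM10 and 0.145 and 0.130 CPM in N2, again higher mainly in UM10 replicate 1. Of 184 nuclear hormone receptors nhr-2, which acts in embryos, was called higher and nhr-234 lower. Each made up 0.543% of the family, against 2.2% and 0.541% of all tested genes. Of 59 tested chemoreceptor genes srg-31 (1.69%) was called higher.

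The food reading moved some lists and named genes more than others. With the food read from the file names, 22 hedgehog-related genes were called lower in place of 1, 10 moulting and apical matrix genes in place of 0 (median -1.64 in place of -0.54), 17 genes of fatty acid metabolism in place of 3, 11 glutathione transferases in place of 2, 13 UDP-glucuronosyltransferases in place of 2, and 7 genes of propionate breakdown and the methionine cycle in place of 0. The oocyte list had 19 genes called higher in place of 14, and the pharyngeal cuticle list 35 called lower in place of 23. The dopamine list had 1 called lower in place of 0 (median -0.73 in place of -0.29). Of 16 epidermis genes 7 were called lower in place of 0 (median -1.49 in place of -0.66). Of 53 autophagy and lysosome genes 4 were called higher in place of 1 and 7 lower in place of 0. Over all tested genes, 605 were called higher in place of 338 and 783 lower in place of 83. The log2 fold change of argk-1 was -8.20 in place of -4.60, that of acox-1.2 -4.89 in place of -2.38 and that of nhr-234 -4.76 in place of -3.06. On the higher side mtl-1 was at 7.32 in place of 3.88, ilys-3 at 5.997 in place of 3.49, WBGene00014454 at 4.88 in place of 2.03 and WBGene00014472 at 4.14 in place of 2.61. The calls of lab-1, dod-22, math-34 and cyp-13A5 were lost, with log2 fold changes of 1.63, 2.32, 2.22 and 1.79.

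The called genes were partly covered by the lists. Of the 338 called higher, 60 were on a list and 278 were not, and of the 83 called lower, 42 were on a list and 41 were not.

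**Figure D5:**
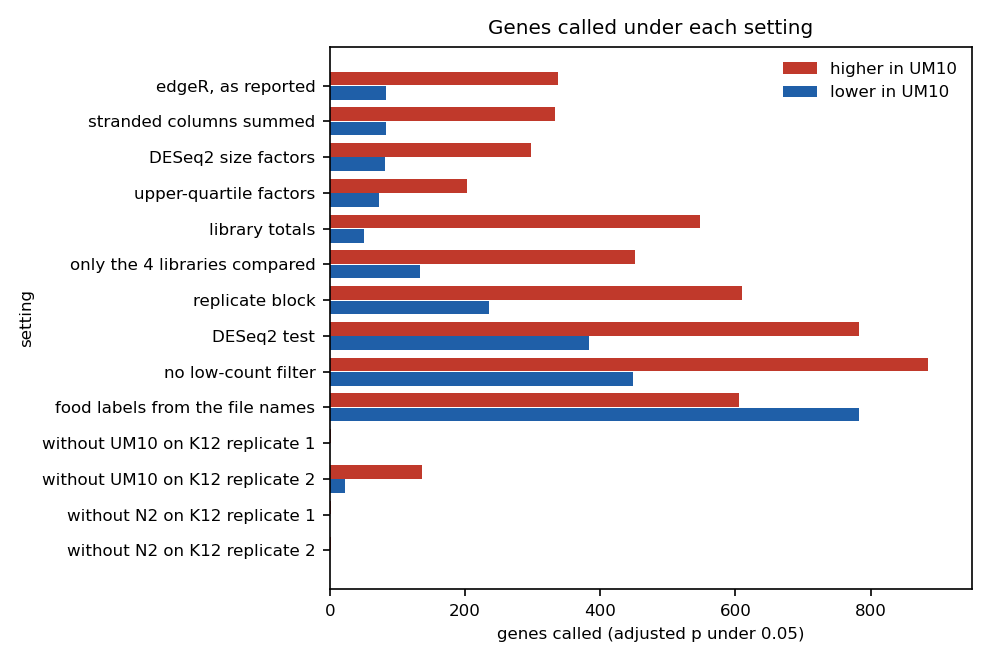
Number of genes called (horizontal axis, adjusted p under 0.05) in UM10 against N2 on K12 under each setting (rows), red for higher and blue for lower in UM10. The count was 338 higher and 83 lower as reported, 885 and 448 without the filter on low counts, and 2 and 0 without UM10 replicate 1 or without either N2 library.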

How the data were processed

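Whole L4 animals gave 6 libraries in 3 groups of 2, of which UM10 on K12 and N2 on K12 are compared. The authors deposited raw read counts per gene for each library, with an unstranded and 2 stranded columns. The submitters' processing notes name STAR 2.7.5, DESeq2 1.28.1 and the build WBcel235, without their settings. The unstranded counts were used, since the first stranded column held 48.4% to 49.7% of the stranded reads. Summary lines (7.85% to 8.72% of reads, including 2.57% to 4.05% mapped to several places) were left out. Of 46778 gene identifiers, 46603 were in the Ensembl annotation of WBcel235, from which coordinates come.

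The counts were filtered with filterByExpr (10 counts, 15 in total), scaled by TMM and fitted with edgeR 4.0.16 in R 4.3.3, with 1 term per group over the 6 libraries and the quasi-likelihood test. P-values were adjusted by Benjamini-Hochberg over 15331 genes, and each standard error was taken as the absolute log2 fold change divided by the root of F. DESeq2 1.42.0, other scalings, filters and samples served as alternatives. Each gene's counting error is small at high counts and larger at low counts, such as the 18 and 28 counts of cyp-14A2 in UM10. The biological coefficient of variation was 0.390, and 3 residual degrees of freedom limit the precision. The labels do not say that replicates came from separate cultures, so p-values measure the spread between these samples.

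Named genes were the 12 largest called changes in each direction (mean count of 50 or more in the higher strain, libraries not overlapping). To these were added up to 3 called members per direction of each of 48 lists, and all 6 members of 1 list on transgenes. That list held aex-3, dat-1, rol-6, unc-54 and unc-119, as promoter donors or transgene markers. It also held saeg-2, which lies near dat-1 and was its 1 called member. Called neighbours of all these genes were named too. Other genes were chosen after their values were seen. The members and lists were chosen with earlier results of these data known. A result on 1 gene is not reported here.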

Additional observations from a re-analysis of the deposited data

How the results depend on the processing

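All 421 called genes kept their direction under each alternative on the same labels. The counts of called genes moved more. DESeq2's test called 783 higher and 384 lower, the fit without a low-count filter 885 and 448 of 22902 genes, and the fit of the 4 compared libraries alone 451 and 133. Upper-quartile factors gave 203 and 73, and library totals, an alternative chosen after seeing the data, 548 and 50. The food labels from the file names gave 605 and 783, with 43.6% of calls higher. With 1 library left out the counts ranged over 2 to 137 higher and 0 to 23 lower. The replicate block gave 609 and 236 calls. The labels do not say that replicate numbers pair the samples. The correlation of deviations from the group mean between UM10 replicate 1 and N2 replicate 1 was 0.354. With 2 libraries a group, replicate 2 gives the same value by construction. The cause of the differences in call counts was not tested. Directions turned for cyp-13A4 (-0.49) and unc-54 (0.17) with the file names, for aex-3 (0.023) with library totals, and for unc-119 with the file names (-0.34), with upper-quartile factors (-0.069), without N2 replicate 2 (-0.22) and without UM10 replicate 1 (-0.13), against 0.075 as reported, 0.40 without N2 replicate 1 and 0.69 with library totals, its highest value. These are log2 fold changes, and of these genes cyp-13A4 alone was called as reported. With 2 libraries a group, a fit without 1 of them leaves that group 1 library. List medians of abundant genes moved with the scaling. That of the cytosolic ribosomal protein genes was -1.01 as reported and -0.32 with library totals.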

Other observations

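Called genes lay beside each other on the chromosomes more than once. Among tested genes in chromosome order, 82 of the 338 genes called higher stood in 36 runs of neighbours, and 17 of the 83 called lower in 6 runs. The longest run of lower genes held pqn-63, idpc-7, idpc-6, idpc-5, idpc-4 and idpc-3 on chromosome V 9616031 to 9629214, 6 pharyngeal cuticle genes with log2 fold changes of -4.47, -4.01, -5.18, -5.61, -4.90 and -4.28. The same chromosome carried abu-15, abu-6 and abu-7 (5158602 to 5164782) and cth-1 with argk-1 (16100680 to 16105952). It held 35 of the 83 genes called lower, 1.14% of its 3060 tested genes, against 0.541% over all chromosomes.

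Among genes called higher, the longest run was on chromosome X 11865383 to 11884042, with F54F7.6, Y62H9A.3, Y62H9A.4, Y62H9A.5 and ule-5. Y62H9A.4 was at 107 and 63.0 CPM in UM10 and 20.8 and 17.3 CPM in N2, and ule-5, named for uterine lumen expression, at 305 and 169 CPM in UM10 and 42.6 and 32.9 CPM in N2. Runs of 4 were ZK813.3, ZK813.2, ZK813.7 and ZK813.1 on X 3441839 to 3446935 and F14H3.3, F14H3.4, F14H3.5 and F14H3.6 on V 16051923 to 16058893. Each of the 3 memi genes stood beside a cyp-31A gene, and the split of reads between such similar copies is uncertain. On chromosome X fkh-3 and fkh-4, a pair of forkhead genes, were called with C29F7.10 (13421822 to 13431488), and fkh-4 had 0 counts in both N2 libraries against 1.32 and 1.51 CPM in UM10. The neighbours skr-14 and skr-7, Skp1-related genes of ubiquitin ligases on V, were at 2.75 and 1.88 CPM and 4.22 and 3.91 CPM in UM10, against 0.0724 and 0.130 CPM and 0.362 and 0.216 CPM in N2.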
